A study of Rattus norvegicus with 6 samples.

Results

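The nuclear genes for subunits of the mitochondrial respiratory chain and of ATP synthase were followed through the cell classes of the rat cerebral hemisphere, in control rats and in rats with acute carbon monoxide (CO) poisoning. Members were all genes whose symbol starts with Ndufa, Ndufb, Ndufc, Ndufs or Ndufv and a digit, the Sdha to Sdhd genes, symbols starting with Uqcr, Cyc1, Cycs, symbols starting with Cox4 to Cox8, and symbols starting with Atp5. This rule found 83 of the 15227 genes in the count tables. By symbol, 37 belong to complex I, 4 to complex II, 9 to complex III, 1 is cytochrome c, 16 belong to complex IV and 16 to ATP synthase. Ndufa4, its paralog Ndufa4l2 and Cox7a2l are counted under the complex their symbols name, although the Ndufa4 protein is a component of complex IV and Cox7a2l helps to join complexes III and IV. The mitochondrially encoded subunits were not analysed here.

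Complexes I and II pass electrons from NADH and succinate to ubiquinone, complex III passes them on to cytochrome c, and complex IV, cytochrome c oxidase, passes them to oxygen. Complexes I, III and IV pump protons, and ATP synthase uses the proton gradient to make ATP. Carbon monoxide binds hemoglobin in place of oxygen, and it can also bind the heme and copper site of complex IV where oxygen is reduced.

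The series holds 6 droplet libraries (10x Genomics) of cerebral hemisphere, 3 labelled as negative or normal control (NC) and 3 as CO. Per the series description, 3 rats per group were used. The CO rats breathed 1000 ppm of the gas in a closed chamber for 40 min and then 3000 ppm for 20 min, and the model was accepted when consciousness was impaired and carboxyhemoglobin, the form of hemoglobin that carries CO, exceeded 60%. The NC rats had no stated exposure, both groups were digested with trypsin and DNase, and the strain, sex, age and time of sampling after exposure are not given in the sources used here.

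Each library held 39494470 to 47322264 unique molecular identifiers (UMIs, 1 per captured transcript). The 20258 NC cells kept had a median of 4840 UMIs and the 17769 CO cells a median of 5661. The libraries of a group differed by about as much as parts of 1 pool of cells would: the mean square between libraries over that within them, averaged over genes, was 1.02 in NC and 1.09 in CO over all kept cells, where 1 marks no added spread. Over the members alone it was 1.249 in NC and 0.897 in CO. A single barcode was shared over the 15 pairs of libraries. The 3 libraries of a group were therefore summed and counted as 1 sample, no p-values are given, and the spread between rats is unknown. Values of single libraries, and whether they overlap between groups, are given throughout as description. They may show only the spread between parts of 1 pool, and cannot show that between rats. Within a class the libraries of a group also share 1 scaling factor. Cells were assigned to classes by marker genes, and 9 classes had at least 30 cells in every library. Every defining marker of each class found in the count tables was detected in both groups, and the classes are called microglia-like, endothelial-like and so on, since the names rest on these markers alone.

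Levels are UMIs per 1000000 (CPM), scaled within each class by the trimmed mean of M values (TMM). They compare 1 gene, or 1 fixed sum of genes, between classes and groups, and not different genes with each other, since UMI counts are not scaled by transcript length. The TMM factors were set between NC and CO within a class, so nothing scales 1 class against another. Levels in different classes therefore also depend on what else fills the total: the 7 choroid plexus markers alone took 320414 CPM in NC choroid plexus-like cells. Intervals are exact, have a confidence level of 95% and cover counting error only. A member is counted as higher or lower when its log2 ratio of CO over NC was at least 0.32 in size and it had at least 30 UMIs over both groups. In bulk over all cells, a change in the mix of classes and a change within cells cannot be told apart. Over all kept cells the 83 genes summed to 19195 CPM in NC and 18664 CPM in CO, with every CO library below every NC library. None of the 9 compared classes showed CO libraries all below NC libraries. The kept cells also include barcodes with no class and classes too small to compare. Microglia-like cells, which had the lowest sum of the 9 classes, made up 34.0% of kept NC cells and 44.1% of kept CO cells, and oligodendrocyte-like cells 18.6% and 8.24%. The part of these shares in the lower sum was not tested.

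Across cell classes the summed level differed several-fold. In NC, the 83 genes summed to 9193 CPM in microglia-like cells and 11302 CPM in border-associated macrophage-like cells. The sum was 17502 CPM in endothelial-like, 21266 CPM in astrocyte-like, 22008 CPM in oligodendrocyte-like, 22637 CPM in ependymal-like and 23018 CPM in neuroblast-like cells. It reached 28441 CPM in pericyte-like cells and 37138 CPM in choroid plexus-like cells, the epithelium that secretes cerebrospinal fluid. The NC libraries spanned 9136 to 9220.3 CPM in microglia-like cells and 35437 to 39415 CPM in choroid plexus-like cells, so the ends of this order did not approach each other. In the middle of the order the libraries overlapped: astrocyte-like cells spanned 19502 to 22305 CPM, oligodendrocyte-like 21722 to 22463 CPM, ependymal-like 22165 to 23366 CPM and neuroblast-like 21896 to 23721 CPM. Barcodes under 500 UMIs, which were left out, held 31016.5 CPM of these genes in NC and 34586.7 CPM in CO.

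**Figure D1:**
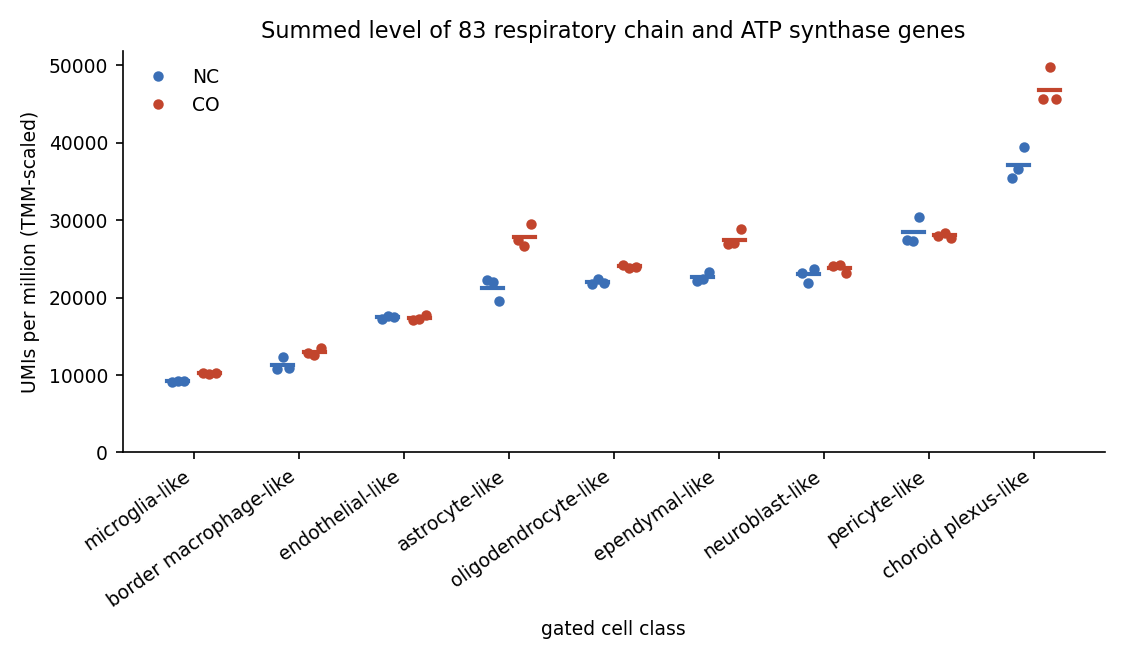
Summed level of the 83 genes in each gated class (vertical axis, CPM, TMM-scaled within a class), with 1 point per library and a bar for each group sum. Microglia-like cells have the lowest sum (9193 in NC) and choroid plexus-like cells the highest (37138 in NC), and the CO points lie above all NC points in 6 of 9 classes.

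Single genes followed this order for the most part. In NC, 43 of the 83 genes had their highest level in choroid plexus-like cells, 16 in pericyte-like, 9 in astrocyte-like, 6 in oligodendrocyte-like, 5 in neuroblast-like, 2 in endothelial-like and 2 in ependymal-like cells. The lowest level was in microglia-like cells for 45 genes and in macrophage-like cells for 28. In 35 genes the highest class was at least 2-fold above the median class. The most even were Cox7c and Cox5a, structural subunits of complex IV, and Ndufb3, an accessory subunit of the membrane arm of complex I, whose highest class was 1.22, 1.23 and 1.24 times the median class. Cox7c was at 639 CPM in pericyte-like, 636 CPM in oligodendrocyte-like and 172 CPM in microglia-like NC cells, so even these members were low in microglia-like cells.

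The members that differed most between classes were paralogs of widely expressed subunits: Cox4i2, Ndufa4l2 and Cox8b. Cox4i2 is the alternative form of Cox4i1, a structural subunit of complex IV, and is known as a hypoxia-responsive isoform in lung and other tissues. Ndufa4l2 is the paralog of Ndufa4 and a known target of hypoxia-inducible factor. Cox8b is the form of Cox8a found in heart and skeletal muscle of rodents. To show what sequence lies at the starts of such pairs, the windows from 250 bases before to 50 bases after the start are given for Ndufa4, Ndufa4l2, Cox8a and Cox8b, and for Atp5me, a membrane subunit of ATP synthase that was higher in CO in most classes. They come from RefSeq on the GRCr8 build, which is not the build the counts were made on. No window was available for Cox4i2, so the pair of Cox4i1 and Cox4i2 is not printed. Capitals mark the motifs searched on both strands: NRF1 (GCGCANGCG), ETS or GABPA (CCGGAAG), YY1 (AAGATGGCG) and the hypoxia response core (ACGTG). NRF1, GABPA and YY1 are transcription factors known to act at nuclear genes for respiratory subunits.
Ndufa4 (chr4:40975510-40975809, reverse strand): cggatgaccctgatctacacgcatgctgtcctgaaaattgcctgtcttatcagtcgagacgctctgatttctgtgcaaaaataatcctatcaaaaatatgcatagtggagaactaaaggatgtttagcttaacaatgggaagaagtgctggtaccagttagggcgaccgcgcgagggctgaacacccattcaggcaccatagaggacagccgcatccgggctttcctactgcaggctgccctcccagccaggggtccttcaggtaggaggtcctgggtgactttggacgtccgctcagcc
Ndufa4l2 (chr7:65241919-65242218, forward strand): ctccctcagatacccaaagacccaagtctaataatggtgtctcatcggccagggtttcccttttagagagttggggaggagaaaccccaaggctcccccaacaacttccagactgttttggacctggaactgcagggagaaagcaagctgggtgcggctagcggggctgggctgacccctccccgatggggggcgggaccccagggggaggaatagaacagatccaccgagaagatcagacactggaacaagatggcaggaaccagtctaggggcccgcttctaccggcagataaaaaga
Cox8a (chr1:213833574-213833873, reverse strand): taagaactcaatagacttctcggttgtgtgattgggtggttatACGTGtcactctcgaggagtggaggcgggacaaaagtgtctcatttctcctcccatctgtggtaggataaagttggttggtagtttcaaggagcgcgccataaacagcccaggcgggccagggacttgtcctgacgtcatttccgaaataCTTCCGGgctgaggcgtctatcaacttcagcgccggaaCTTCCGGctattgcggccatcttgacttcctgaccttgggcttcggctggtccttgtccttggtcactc
Cox8b (chr1:205408224-205408523, reverse strand): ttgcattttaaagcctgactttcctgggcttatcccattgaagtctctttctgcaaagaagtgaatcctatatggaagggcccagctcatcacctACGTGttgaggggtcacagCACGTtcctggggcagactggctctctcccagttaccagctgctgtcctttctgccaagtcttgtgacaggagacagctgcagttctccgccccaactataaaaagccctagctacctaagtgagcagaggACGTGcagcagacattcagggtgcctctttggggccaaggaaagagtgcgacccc
Atp5me (chr14:1464610-1464909, forward strand): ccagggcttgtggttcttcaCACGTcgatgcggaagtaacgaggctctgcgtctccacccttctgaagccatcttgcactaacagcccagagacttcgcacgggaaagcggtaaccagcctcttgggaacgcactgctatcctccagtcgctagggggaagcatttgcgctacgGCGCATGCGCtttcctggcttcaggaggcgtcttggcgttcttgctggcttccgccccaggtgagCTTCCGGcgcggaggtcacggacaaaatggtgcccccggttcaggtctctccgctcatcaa

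In these windows Ndufa4 and Ndufa4l2 held none of the 4 motifs. Cox8a held 2 ETS matches and 1 ACGTG, and Cox8b held 3 ACGTG and none of the other motifs. The window of Cox4i1, not printed, held 2 ETS matches and 1 ACGTG. Atp5me held 2 overlapping NRF1 matches, 1 on each strand of the same run, with 1 ETS match and 1 ACGTG. Of the 83 genes, 72 had a window in the table. NRF1 was matched in 23.6% of these 72 windows, against 5.80% of all 33469 windows of the same length and 10.5% of the 13590 windows of other genes in the count tables. ETS was matched in 29.2%, against 8.75% and 14%, YY1 in 12.5%, against 1.73% and 2.81%, and ACGTG in 27.8%, against 19.2% and 23.1%. At least 1 of NRF1, ETS and YY1 was matched in 55.6% of the members' windows, in 14.5% of all windows and in 24.0% of those of other genes in the count tables. A match of letters is a description and not a binding site.

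Pericyte-like cells, which wrap the brain's capillaries, carried Cox4i2 and Ndufa4l2. Cox4i2 was at 2110.0, 1704 and 1913 CPM in the NC libraries and at 1229, 1405 and 1395 CPM in the CO libraries. All CO libraries were lower than all NC libraries, and the group levels were 1918 and 1343 CPM, a log2 ratio of -0.51 (-0.62 to -0.41). Cox4i1 was at 1129 CPM in NC and 1085 CPM in CO in the same cells, a log2 ratio of -0.06 (-0.18 to 0.07), and its libraries overlapped. Cox4i2 gave 63.0% of the UMIs of the pair in NC (61.2 to 64.7) and 55.3% in CO (53.3 to 57.3), with no length scaling. The shares of single libraries ran from 61.4% to 64.7% in NC and from 53.0% to 57.0% in CO, without overlap.

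Ndufa4l2 in pericyte-like cells was at 960.2, 973 and 1265 CPM in the NC libraries and 824, 926 and 1012 CPM in the CO libraries. The highest CO library lay above 2 NC libraries, so the groups overlapped, and the log2 ratio of the group levels (1070.1 and 919 CPM) was -0.22 (-0.35 to -0.09). Its partner Ndufa4 was lower in pericyte-like cells than in the other 8 classes of NC, at 152 CPM, with 156 CPM in CO, while choroid plexus-like cells held 2402 and 3030.1 CPM. Ndufa4l2 gave 87.6% of the UMIs of this pair in NC pericyte-like cells and 85.5% in CO.

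By cell, 332 of 398 NC pericyte-like cells (83.4%, 79.4 to 86.9) and 276 of 411 CO cells (67.2%, 62.4 to 71.7) had a Cox4i2 UMI. The median depth of these cells was similar, 2355.5 UMIs in NC and 2249 in CO. For Ndufa4l2 the shares were 71.6% (66.9 to 76.0) and 64.5% (59.6 to 69.1), and for Ndufa4 they were 19.3% and 19.7%. Both Cox4i2 and Ndufa4l2 were found in 64.3% of NC and 50.1% of CO pericyte-like cells. In microglia-like cells, at median depths of 5048 and 5860.5 UMIs, Cox4i2 was found in 0.610% and 0.587% of cells. In macrophage-like cells it was found in 0 of 365 NC cells, which allows a share of up to 0.822%, and in 0 of 260 CO cells, which allows up to 1.15%. The 8 pericyte markers together were 20960.3 CPM in NC and 22562 CPM in CO in the pericyte-like class. Cells entered the class by these same markers, so this level cannot show whether the markers declined with Cox4i2. The 8 endothelial markers in the class were 1816 to 2027 CPM in the NC libraries and 1703 to 2001 CPM in the CO libraries, and the 6 smooth muscle markers 519.9 to 602 CPM and 470.4 to 556 CPM. Markers of some other cells moved without overlap: the 7 choroid plexus markers went from 2257 to 2371 CPM in the NC libraries to 811 to 1035 CPM in the CO libraries, with Prlr at 0, the 9 oligodendrocyte markers from 833 to 887 CPM to 581 to 670.0 CPM, with none at 0, and the 7 macrophage markers from 15.3 to 122 CPM to 0 to 9.73 CPM, with Ms4a7 at 0. Of these, 2, 1 and 0 markers were higher in CO. The part of all these markers in the lower Cox4i2 level was not tested.

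Endothelial-like cells held far less of both genes, and here the ratios pointed the other way. Cox4i2 was at 45.3, 31.3 and 30.5 CPM in the NC libraries and 58.6, 43.7 and 52.6 CPM in the CO libraries, overlapping, with a log2 ratio of 0.54 (0.38 to 0.70). Ndufa4l2 was at 23.0, 28.4 and 19.2 CPM in NC and 31.9, 41.9 and 32.8 CPM in CO, all CO libraries being higher, with a log2 ratio of 0.60 (0.40 to 0.79). The 8 pericyte markers in endothelial-like cells moved the same way: 8 of 8 were higher in CO, none was at 0, and their sum went from 310.2 to 315 CPM in the NC libraries to 502 to 563 CPM in the CO libraries. Their part in these 2 ratios was not tested.

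**Figure D2:**
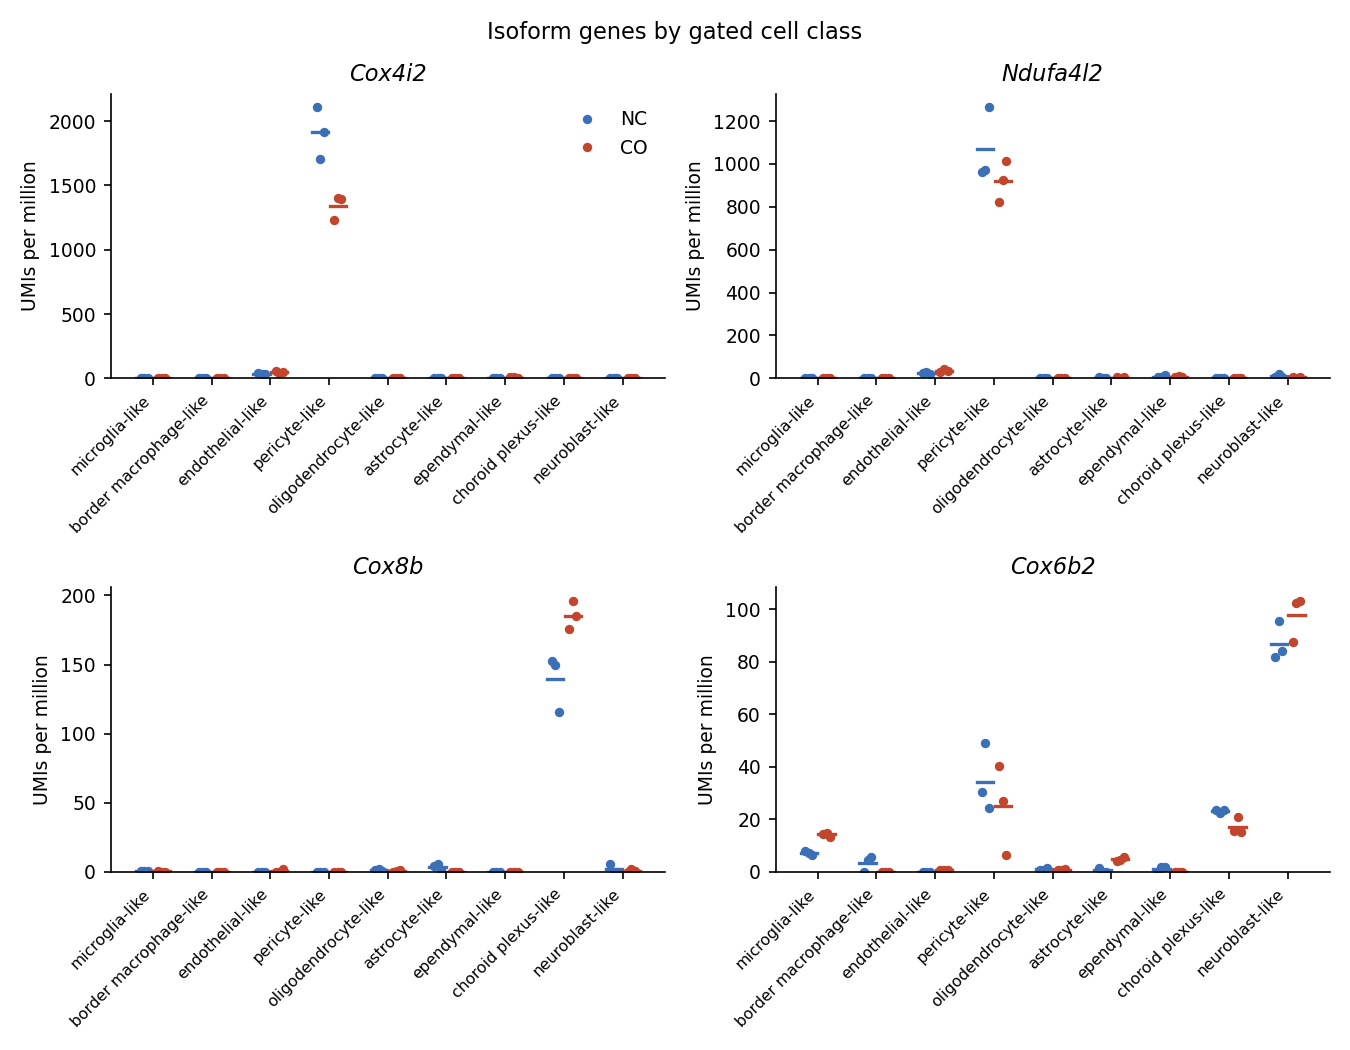
Levels of isoform genes in each gated class (vertical axes, CPM, from 0, with a scale of its own in each panel), with 1 point per library and NC and CO in different colours. Cox4i2 and Ndufa4l2 stand out in pericyte-like cells (1918 and 1070.1 in NC) and Cox8b in choroid plexus-like cells (139 in NC), and CO pericyte-like libraries lie below NC for Cox4i2.

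Cox8b was carried by choroid plexus-like cells, at 153, 149.9 and 116 CPM in the NC libraries and 175, 196 and 185 CPM in the CO libraries. All CO libraries were higher, with a log2 ratio of 0.41 (0.32 to 0.50). Cox8a, the form of all tissues, was higher in CO as well, at 2047 and 3022 CPM, a log2 ratio of 0.56 (0.54 to 0.59). The share of Cox8b in the UMIs of the pair was 6.37% in NC and 5.78% in CO, and the ranges over libraries overlapped (5.07% to 7.47% and 5.19% to 6.20%). A Cox8b UMI was found in 58.8% of NC and 47.2% of CO choroid plexus-like cells, with median depths of 40258.5 and 9398 UMIs. In pericyte-like cells it was found in 0 of 398 NC cells, which allows a share of up to 0.754%, and in 0 of 411 CO cells, which allows up to 0.730%.

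Cox6b2, the paralog of Cox6b1 known from testis, was carried by neuroblast-like cells, with 86.8 CPM in NC and 97.9 CPM in CO, a log2 ratio of 0.17 (-0.07 to 0.42). It gave 20.5% and 19.6% of the UMIs of the pair there, and the libraries overlapped. Other classes held Cox6b2 too: pericyte-like cells at 34.0 CPM in NC, and choroid plexus-like cells at 23.2 CPM in NC and 16.9 CPM in CO. A UMI was found in 27.3% and 29.7% of neuroblast-like cells. In choroid plexus-like cells, with median depths of 40258.5 and 9398 UMIs, the shares were 26.9% and 14.1%. Of 5 classes that passed the count minimum, Cox6b2 counted as higher in 1 and lower in 3. Microglia-like cells held little of it, but with a difference: 7.77, 7.22 and 6.55 CPM in the NC libraries and 14.5, 14.9 and 13.4 CPM in the CO libraries. The CO libraries were all near 2 times the NC level, with a log2 ratio of 0.99 (0.78 to 1.20). A Cox6b2 UMI was found in 2.31% of NC and 5.76% of CO microglia-like cells, against 0.610% and 0.615% of oligodendrocyte-like cells, whose median depths were 8914 and 9755.5 UMIs. In astrocyte-like cells 1 of 479 NC and 10 of 647 CO cells had one, and in pericyte-like cells 5.03% and 2.43%. The 10 neuroblast markers in microglia-like cells went the same way, from 5.04 to 7.42 CPM in the NC libraries to 14.6 to 16.5 CPM in the CO libraries, 7 of 10 being higher and none at 0. Their part in the Cox6b2 level was not tested.

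Cox6a2, the heart and muscle form of Cox6a1, was near the limit of detection. In microglia-like cells it had 18 UMIs in NC and 137 in CO, or 0.349, 0.924 and 0.234 CPM in the NC libraries and 2.73, 3.13 and 3.08 CPM in the CO libraries. All CO libraries were higher, with a log2 ratio of 2.58 (1.87 to 3.38), and 13 of 6890 NC cells (0.189%) and 86 of 7832 CO cells (1.10%) had a UMI. Of the 9 classes its level was highest in astrocyte-like cells, at 1.65 CPM in NC and 5.22 CPM in CO. It rested there on 3 and 13 UMIs, below the count minimum, in 2 of 479 and 10 of 647 cells. In vascular smooth muscle-like cells, too few to compare, 2 of 66 and 4 of 46 cells had a UMI. In choroid plexus-like cells 3 of 376 and 0 of 369 did. Oligodendrocyte-like cells, which were deeper than microglia-like cells, had 1 of 3773 and 0 of 1464 cells with a UMI, and the 0 allows a share of up to 0.205%. Cox6a1 stood at 228 and 241 CPM in microglia-like cells, so Cox6a2 gave 0.217% of the UMIs of the pair in NC and 1.22% in CO.

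Cox7a1, the muscle form of Cox7a2, was carried at a low level by oligodendrocyte-like cells, at 9.97, 11.8 and 12.03 CPM in the NC libraries and 6.84, 8.06 and 7.61 CPM in the CO libraries. All CO libraries were lower, with a log2 ratio of -0.59 (-0.89 to -0.29), while Cox7a2 was at 731 and 776 CPM, a log2 ratio of 0.09 (0.06 to 0.12). The remaining paralog, Ndufa10l1, had 330 UMIs over all kept cells and passed the count minimum in 2 classes. Ndufa1, a complex I subunit, had 6 UMIs in all and passed in none. The authors' counting of reads that match near-identical copies of a gene was not tested, which leaves the levels of Ndufa1, Ndufa10l1, Atp5pb and Uqcrb uncertain.

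The comparison of CO with NC asked how these genes stood within each class after the exposure. In 6 of 9 classes the sum of the 83 genes was higher in every CO library than in every NC library. In microglia-like cells the sums were 9136, 9220.0 and 9220.3 CPM in NC and 10267, 10187 and 10250.1 CPM in CO, a log2 ratio of 0.16 (0.15 to 0.16). The log2 ratio was 0.20 (0.16 to 0.23) in macrophage-like cells and 0.13 (0.12 to 0.13) in oligodendrocyte-like cells. It was larger in astrocyte-like cells at 0.39 (0.37 to 0.41), in choroid plexus-like cells at 0.34 (0.33 to 0.34) and in ependymal-like cells at 0.28 (0.26 to 0.30). The libraries overlapped in endothelial-like cells at -0.01 (-0.02 to -0.00), in pericyte-like cells at -0.02 (-0.04 to 0.00) and in neuroblast-like cells at 0.05 (0.03 to 0.06).

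The counts of single members are read against the share of all genes past the same size. All genes were not matched to the members in UMI counts, and genes with few UMIs pass the size more readily by counting error. The part of this in any difference between the shares was not tested. In microglia-like cells 82 members passed the count minimum, of which 15 were higher in CO, where 16.6% of all genes tested were higher, and 3 were lower, where 19.1% of all genes were lower. The 3 lower ones were the low paralogs Cox7a1, Cox8b and Cox4i2. In oligodendrocyte-like cells 13 of 81 were higher (all genes 17.9%) and 5 lower (all genes 17.2%), and the 5 were again paralogs, Ndufa4l2, Cox8b, Cox4i2, Cox7a1 and Cox6b2. So in these 2 classes the share of higher members was near that of all genes, and the share of lower members was below it. The median log2 ratio was 0.12 over the members and 0.00288 over all genes in microglia-like cells, and 0.10 and -0.00186 in oligodendrocyte-like cells. Without NC library 01, and likewise without NC library 02, 1 member was lower in microglia-like cells. The share of all genes is not given for these runs.

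In astrocyte-like cells 45 of 75 members were higher (all genes 28.4%) and 0 lower (all genes 28.2%). In ependymal-like cells 35 of 75 were higher (all genes 28.0%) and 2 lower (all genes 28.7%), and in choroid plexus-like cells 35 of 79 were higher (all genes 24.9%) and 2 lower (all genes 27.5%). In these 3 classes more members were higher, and fewer lower, than among all genes, with median log2 ratios of 0.39, 0.31 and 0.29. Macrophage-like cells had 27 of 72 higher (all genes 29.7%) and 7 lower (all genes 30.5%). Endothelial-like cells had 7 of 78 higher (all genes 24.7%) and 11 lower (all genes 25.2%), pericyte-like cells 14 of 77 (all genes 29.1%) and 10 (all genes 28.5%), and neuroblast-like cells 8 of 77 (all genes 25.1%) and 7 (all genes 21.0%). In the last 3 classes both directions held smaller shares of the members than of all genes. There 76, 68 and 71 members had at least 100 UMIs in each group, and all genes were not matched to them in counts. Scaled by total UMI counts, which moved the median of all genes by -0.14 in choroid plexus-like and -0.08 in endothelial-like cells, 16 members were higher and 3 lower in the former and 5 and 16 in the latter. In pericyte-like cells 16 members were lower without NC library 01 and 9 higher without NC library 02, and in neuroblast-like cells 5 were higher without NC library 02. For these other settings the shares of all genes are not given.

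Depth and markers of other cells also differed between groups in these classes. The median UMIs per cell were 3445 in NC and 2136 in CO astrocyte-like cells, 40258.5 and 9398 in choroid plexus-like cells and 12694 and 13909 in ependymal-like cells. In astrocyte-like cells the 10 microglial markers summed to 294 to 459 CPM in the NC libraries and 733 to 924 CPM in the CO libraries, 8 of 10 being higher and none at 0. The 7 choroid plexus markers summed to 1349.9 to 1465 CPM and 595 to 708 CPM in astrocyte-like cells, where Kl was at 0, to 998 to 1052 CPM and 447 to 524 CPM in microglia-like cells, and to 997 to 1165 CPM and 301 to 320 CPM in oligodendrocyte-like cells, with none at 0 in these last 2. The 9 oligodendrocyte markers summed to 190.4 to 787 CPM in NC and 131 to 154 CPM in CO choroid plexus-like cells, and to 349.6 to 599 CPM and 137 to 191 CPM in ependymal-like cells, 1 of 9 being higher and none at 0 in each. The 6 oligodendrocyte precursor markers in choroid plexus-like cells went from 84.2 to 88.0 CPM to 200.5 to 270.1 CPM, 4 of 6 being higher and Gpr17 at 0. The part of depth and of these markers in the ratios was not tested. In astrocyte-like cells of at least 2000 UMIs the log2 ratio of the sum was 0.31, and in choroid plexus-like cells thinned to 1000 UMIs it was 0.21.

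**Figure D3:**
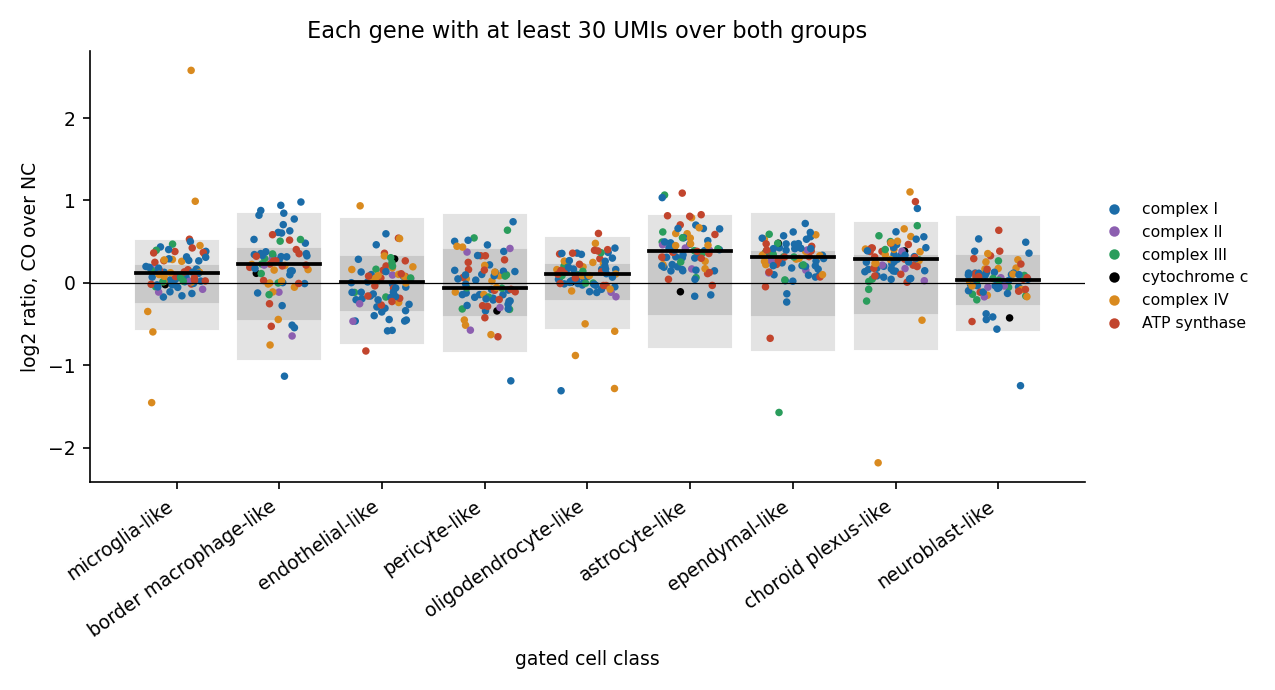
Log2 ratio of CO over NC (vertical axis) of each member with at least 30 UMIs over both groups, by class, with the median of the members as a black line and grey boxes for the quartiles and the outer deciles of all genes tested. The members lie above the median of all genes in astrocyte-like, ependymal-like and choroid plexus-like cells (medians 0.39, 0.31 and 0.29) and around it in endothelial-like, pericyte-like and neuroblast-like cells (0.01, -0.06 and 0.03).

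By complex, ATP synthase and complex IV were higher in CO in microglia-like cells, both with a log2 ratio of 0.21 (0.20 to 0.22). ATP synthase summed to 2306, 2336 and 2333 CPM in the NC libraries and 2703, 2671 and 2685 CPM in the CO libraries, without overlap. Complex I stood at 0.11 (0.09 to 0.12) and complex III at 0.12 (0.10 to 0.14), also without overlap. Complex II stood at -0.02 (-0.06 to 0.01) and cytochrome c at -0.02 (-0.09 to 0.05), and the libraries of both overlapped. Complex II, which is also an enzyme of the citric acid cycle and has only nuclear subunits, overlapped in 7 of 9 classes. The exceptions were astrocyte-like cells, at 0.36 (0.26 to 0.47), and endothelial-like cells, at -0.12 (-0.18 to -0.07).

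**Figure D4:**
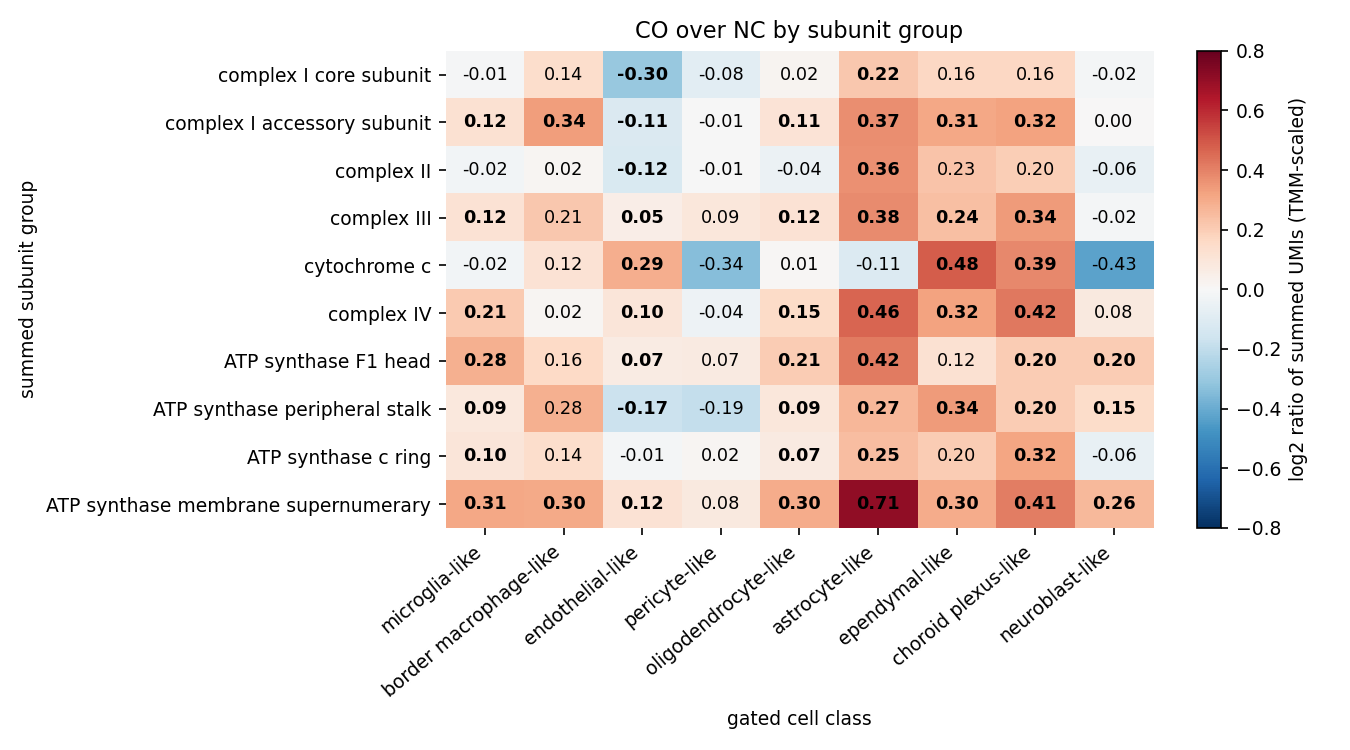
Log2 ratio of CO over NC (colour and printed value) of the summed UMIs of each subunit group (rows) in each gated class (columns), with bold print where the 3 CO and 3 NC libraries did not overlap. Complex I is drawn as core and accessory rows, which stand at -0.01 (with overlap) and 0.12 (without) in microglia-like cells. The sum of the whole complex is not drawn. It was positive in microglia-like, macrophage-like, oligodendrocyte-like, astrocyte-like, ependymal-like and choroid plexus-like cells (0.10 to 0.35) and negative in endothelial-like cells (-0.13).

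The small membrane subunits of ATP synthase, Atp5md, Atp5me, Atp5mf and Atp5mg, some of which hold ATP synthase dimers together, were summed as a group of their own. Their log2 ratio was 0.71 (0.63 to 0.79) in astrocyte-like cells, 0.31 (0.28 to 0.34) in microglia-like cells and 0.30 (0.27 to 0.32) in oligodendrocyte-like cells. It was positive in all 9 classes, and the libraries overlapped only in pericyte-like cells, at 0.08. Atp5mf was above 0 in all 9 classes, at 0.08 in endothelial-like cells, and counted as higher in 7, as was Uqcrq, a small subunit of complex III. Atp5me was above 0 in all 9 and counted as higher in 6. Within a class, 16.6% (microglia-like) to 29.7% (macrophage-like) of all genes were higher. The share of all genes higher in as many classes is not given, and these members were named after their values were seen.

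Atp5me was at 75.1, 78.6 and 74.6 CPM in the NC libraries of microglia-like cells and 102, 101 and 103 CPM in the CO libraries, a log2 ratio of 0.42 (0.36 to 0.49). Uqcrq in the same cells stood at 74.2, 76.3 and 77.2 CPM in NC and 98.1, 97.9 and 103 CPM in CO, a log2 ratio of 0.40 (0.33 to 0.46). In neither gene did the groups overlap. Atp5f1e, the epsilon subunit in the central stalk of ATP synthase, was above 0 in all 9 classes and counted as higher in 6, and Atp5mc3, 1 of the genes for the c ring that turns in the membrane, likewise. Ndufa3 and Ndufa5, accessory subunits of complex I, were counted as higher in 7 classes each and above 0 in 8. For these genes too, the share of all genes higher in as many classes is not given.

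In microglia-like cells, the resident phagocytes of the brain, the highest ratios among members with at least 100 UMIs in each group were those of Cox6b2, Atp5f1e, Uqcrb, Cox6c and Ndufa3. Atp5f1e was at 248, 249 and 248 CPM in the NC libraries and 365, 360.5 and 350.4 CPM in the CO libraries, a log2 ratio of 0.53 (0.49 to 0.57). Cox6c, a small subunit of complex IV, was at 367, 355 and 374 CPM in NC and 503, 509 and 490.1 CPM in CO, a log2 ratio of 0.45 (0.42 to 0.48). In neither gene did the libraries overlap. Uqcrb, a subunit of complex III that touches ubiquinone, stood at 0.47 (0.25 to 0.69) and Ndufa3 at 0.44 (0.33 to 0.55), both without overlap.

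The lowest ratios among members with at least 100 UMIs in each group were small in microglia-like cells and, apart from Sdhb, all in complex I. Ndufs4, an accessory subunit needed for a stable complex, was at 95.9, 87.4 and 89.1 CPM in NC and 77.1, 83.2 and 81.5 CPM in CO, a log2 ratio of -0.17 (-0.24 to -0.10) without overlap. Ndufa8 stood at -0.16 (-0.21 to -0.10), Ndufv2, a core iron-sulfur subunit, at -0.13 (-0.21 to -0.05) and Sdhb, the iron-sulfur subunit of complex II, at -0.11 (-0.17 to -0.06), each without overlap. Ndufs8, another core iron-sulfur subunit, stood at -0.11 (-0.19 to -0.03), and its libraries overlapped. None of these 5 reached 0.32 in size.

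A list of 13 catalytic, electron-carrying and structural subunits differed little in microglia-like cells, and 0 of the 13 reached 0.32 in size. Above 0 without overlap were Cox4i1 (409 and 438 CPM, log2 ratio 0.10), Cox5b (169 and 184 CPM, 0.12), Cyc1, the cytochrome c1 of complex III (43.5 and 47.1 CPM, 0.12), and Atp5f1b, the catalytic beta subunit of ATP synthase (171 and 190.2 CPM, 0.15). Below 0 without overlap was Sdhb. The libraries overlapped for Sdha, the flavoprotein of complex II, at 0.18, and for Ndufs1, the largest iron-sulfur subunit of complex I, at 0.13. They also overlapped for Cox5a at 0.02, Uqcrfs1, the Rieske protein, at 0.02, Uqcrc1 at 0.01, Cycs at -0.02, Atp5f1a, the alpha subunit of ATP synthase, at -0.02, and Ndufv1, which binds NADH, at -0.05. The share of all genes without overlap in these cells is not given, so this sorting cannot be read against it.

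Among the 9 classes, endothelial-like cells were the class in which complex I was lower in CO with no overlap of libraries. In pericyte-like cells it stood at -0.04, with overlap. Complex I summed to 6074, 6287 and 6173 CPM in the NC libraries and 5557, 5672 and 5725 CPM in the CO libraries, a log2 ratio of -0.13 (-0.14 to -0.11), and every CO library was lower. The 7 core subunits, which carry the electrons, summed to 623, 631 and 641 CPM in NC and 503, 522 and 511 CPM in CO, a log2 ratio of -0.30 (-0.35 to -0.26). Of the 35 complex I genes tested, 2 counted as higher and 9 as lower, where 24.7% of all genes were higher and 25.2% lower. For the whole complex the share of lower genes was thus near that of all genes. Of the 7 core subunits, a group named after its values were seen, 4 counted as lower: Ndufs8, Ndufs7, Ndufv2 and Ndufs3. Of 27 accessory subunits tested, 1 was higher and 5 were lower, where 24.7% of all genes were higher and 25.2% lower. In microglia-like cells the same 7 core subunits had a log2 ratio of -0.01 (-0.04 to 0.02).

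Ndufs7, next to the ubiquinone site, was at 139, 146 and 147 CPM in the NC libraries of endothelial-like cells and 99.3, 96.0 and 94.0 CPM in the CO libraries. Ndufs8 was at 91.9, 91.0 and 100.3 CPM in NC and 62.1, 60.4 and 66.6 CPM in CO. Both had a log2 ratio of -0.58, with intervals of -0.67 to -0.48 and -0.70 to -0.46, and no overlap of libraries. Sdhd, a membrane anchor of complex II, stood at -0.47 (-0.59 to -0.35), Ndufv2 at -0.46 (-0.56 to -0.36) and Ndufs4 at -0.46 (-0.56 to -0.37), all without overlap.

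In the other direction, Atp5mc3 was at 143, 143 and 146 CPM in the NC libraries of endothelial-like cells and 208, 195 and 225 CPM in the CO libraries, a log2 ratio of 0.54 (0.46 to 0.62). Ndufa5 stood at 0.46 (0.38 to 0.54), Atp5md at 0.36 (0.18 to 0.54), and Cycs at 0.29 (0.21 to 0.37) with 153 CPM in NC and 187 CPM in CO, none of them overlapping. Endothelial-like cells had median depths of 4249 and 5324 UMIs. Their 7 choroid plexus markers summed to 943 to 967 CPM in the NC and 374 to 409 CPM in the CO libraries, and their 10 neuroblast markers to 11.2 to 17.4 CPM and 36.7 to 44.1 CPM, 1 of 7 and 9 of 10 being higher in CO and none at 0. The part of these in the complex I ratio was not tested.

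**Figure D5:**
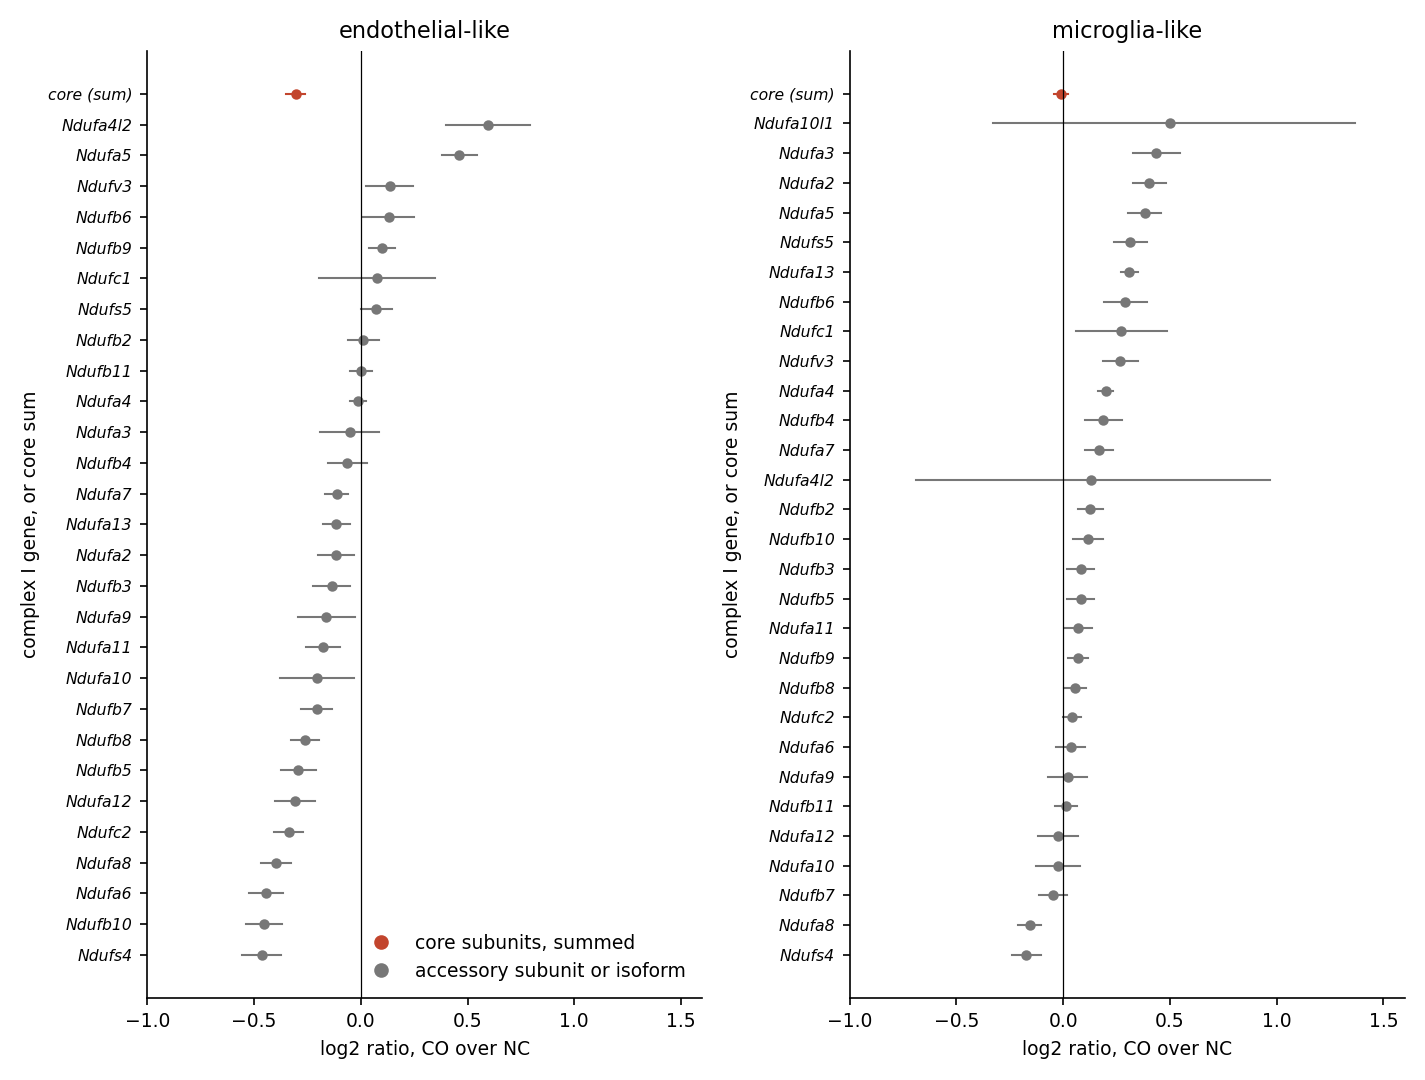
Log2 ratio of CO over NC (horizontal axis) of the accessory subunit and isoform genes of complex I with at least 30 UMIs over both groups, and of the 7 core subunits summed, in 1 panel per class, with 95% intervals for counting error. The core sum lies at -0.30 in endothelial-like and -0.01 in microglia-like cells, and 8 and 22 of the 27 accessory subunits lie right of 0.

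In oligodendrocyte-like cells, which form myelin, the highest members were Atp5md, Cox7c, Ndufb4, Atp5me and Atp5mf. Cox7c was at 630.0, 632 and 646 CPM in the NC libraries and 889.6, 880.2 and 891 CPM in the CO libraries, a log2 ratio of 0.48 (0.45 to 0.51). Atp5md was at 33.1, 36.5 and 33.1 CPM in NC and 60.0, 47.6 and 47.0 CPM in CO, a log2 ratio of 0.60 (0.47 to 0.73). Both were without overlap, as were Ndufb4, an accessory subunit of complex I, at 0.42, Atp5me at 0.40 and Atp5mf at 0.39. Among members with at least 100 UMIs in each group, the lowest after Cox7a1 were Sdhd at -0.17 (-0.23 to -0.11), Ndufa8 at -0.12, Sdhc, the other membrane anchor of complex II, at -0.11, and Ndufs1 at -0.11. The first 3 of these were without overlap, and Ndufs1 overlapped. Of the 16 ATP synthase genes 6 counted as higher and 0 as lower, where 17.9% of all genes were higher and 17.2% lower.

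In the smaller classes the member with the highest and that with the lowest ratio are given, among members with at least 100 UMIs in each group. In macrophage-like cells Ndufa5 was at 104, 187 and 159.9 CPM in NC and 371, 232 and 234 CPM in CO, a log2 ratio of 0.88 (0.63 to 1.13), and Cox7a2l was at 222, 276 and 187 CPM and 138, 125 and 139 CPM, a log2 ratio of -0.75 (-1.04 to -0.48). Neither overlapped, although CO library 01 stood well above the other 2 for Ndufa5. In astrocyte-like cells Atp5if1, the inhibitor that stops ATP synthase from running backwards, was at 106, 79.2 and 101 CPM in NC and 193, 154 and 172 CPM in CO, a log2 ratio of 0.83 (0.57 to 1.09) without overlap. The lowest there, Ndufs1, stood at -0.16 (-0.42 to 0.10) and overlapped. In ependymal-like cells, the ciliated lining of the ventricles, Ndufb5 stood at 0.72 (0.52 to 0.92) and Atp5f1a at -0.67 (-0.86 to -0.48). Atp5f1a was at 266, 280.1 and 287 CPM in NC and 172, 172 and 178 CPM in CO, so the alpha subunit was lower in a class where 35 of 75 members counted as higher and 2 as lower.

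In choroid plexus-like cells Ndufc1 was at 27.2, 35.4 and 31.4 CPM in NC and 53.9, 59.6 and 60.9 CPM in CO, a log2 ratio of 0.90 (0.72 to 1.08), and Cox6b2 the lowest of these members at -0.45 (-0.73 to -0.18), both without overlap. In neuroblast-like cells, young migrating neurons, Atp5me stood at 0.64 (0.48 to 0.79) and Ndufv3 at -0.56 (-0.76 to -0.36), both without overlap. In pericyte-like cells Uqcrq stood at 0.64 (0.37 to 0.91) with overlap. Cox7b, a small subunit of complex IV, was at 468, 437 and 474 CPM in NC and 253, 274 and 369.8 CPM in CO there, a log2 ratio of -0.63 (-0.85 to -0.41) without overlap.

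Cytochrome c, the product of Cycs, carries electrons from complex III to complex IV and also takes part in apoptosis. It was higher in CO without overlap in endothelial-like cells (0.29), ependymal-like cells (0.48, 0.25 to 0.72) and choroid plexus-like cells (0.39, 0.33 to 0.44). In the other 6 classes the libraries overlapped, with log2 ratios from -0.43 in neuroblast-like cells to 0.12 in macrophage-like cells. The neuroblast-like value rested on uneven NC libraries, at 254, 155 and 344 CPM, against 186, 202 and 187 CPM in CO, and it was -0.65 without NC library 02 and -0.13 without NC library 03.

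Other mitochondrial gene lists did not move as the subunits did in every class. The shares of all genes to read these counts against were 16.6% higher and 19.1% lower in microglia-like cells. There the 49 assembly factors had 6 higher and 7 lower (median log2 ratio 0.00), the 17 genes of the citric acid cycle and pyruvate dehydrogenase 1 and 1 (0.02), and the 75 genes of the mitochondrial ribosome 3 and 4 (-0.03). Of the 17 regulators and mitochondrial DNA maintenance genes tested, 0 were higher and 3 lower, and of 7 carriers and uncouplers tested 1 was higher and 0 lower. The cytoplasmic ribosome, a list outside mitochondria, had 25 of 71 higher and 3 lower, with 52230.1 to 52689.6 CPM in the NC libraries and 63767 to 65278 CPM in the CO libraries, a log2 ratio of 0.30. With totals that leave out the cytoplasmic ribosomal genes, the log2 ratio of the 83 members in microglia-like cells was 0.11.

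In astrocyte-like cells, where 28.4% of all genes were higher and 28.2% lower, 31 of 73 mitochondrial ribosome genes were higher and 4 lower, 8 of 17 citric acid cycle genes were higher and 1 lower, 5 of 7 carriers were higher and 0 lower, and 55 of 69 cytoplasmic ribosome genes were higher and 2 lower. The assembly factors had 17 of 47 higher and 10 lower, with a log2 ratio of the sum of 0.10 against 0.39 for the members. Regulators had 2 of 15 higher and 5 lower. In endothelial-like cells 5 of 75 mitochondrial ribosome genes were higher and 17 lower, shares below the 24.7% and 25.2% of all genes. The log2 ratio of their sum was -0.12, and that of the citric acid cycle list was -0.09, both without overlap. The carriers stood at 0.24 there, with 3 of 7 higher and 0 lower.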

How the data were processed

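Droplet libraries (10x Genomics) of rat cerebral hemisphere, 3 NC and 3 CO, were analysed from the UMI counts per gene and barcode that the authors deposited. The submitters' processing notes name Cell Ranger, with no version, and the Rnor_6.0 build. A barcode was kept from 500 UMIs and 200 genes upward, which left 38027 of 42293. A barcode was assigned to a class when its best marker score was at least 0.25, the second score was at most 0.6 of it and at least 3 markers were detected, which assigned 30788 barcodes (80.96% of those kept). The class names are therefore rebuilt here and may differ from those of the study. Doublets were left in, and leaving out those called by Scrublet was an alternative. In the CO libraries 01 and 03 the highest scores at the expected rate were taken as doublets, since the caller's own threshold marked too few.

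The libraries of a group were summed, TMM factors were computed within each class (edgeR 4.0.16, R 4.3.3), and ratios were given exact binomial intervals and shares Clopper-Pearson intervals. These cover counting error only. A count of 0 was read as allowing up to 3 counts. With 1 sample per group there is no test between groups, and the size rule was a log2 ratio of 0.32 with at least 30 UMIs. The alternatives were other scalings (total counts, DESeq2 1.42.0 size factors, totals without ribosomal protein genes), a minimum of 2000 UMIs, a stricter gate (0.3 and 0.4), thinning to 1000 UMIs, no minimum count, 1.5-fold, leaving out each library, and edgeR or DESeq2 with libraries as replicates. Ratios and fits were tested on simulated data. Python 3.11.15, numpy 2.4.6, scipy 1.17.1 and scanpy 1.11.5 were used.

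Named members are the isoform genes, the 5 highest and 5 lowest ratios in microglia-like, endothelial-like and oligodendrocyte-like cells and the highest and lowest in the other classes (at least 100 UMIs in each group), 13 listed subunits in microglia-like cells, and the 3 most and 3 least even members across classes. Members recurring in several classes, and Cycs and the core subunits of complex I by class, were named after their values were seen. The members and lists were chosen with earlier results of these data known. Promoter windows are RefSeq sequences on GRCr8, and 72 of 83 members matched by symbol, 1 of them through a synonym.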

Additional observations from a re-analysis of the deposited data

Results flagged for a closer look

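Complex I pointed one way in most classes and the other way in endothelial-like cells. The log2 ratio of CO over NC of its summed UMIs was 0.11 in microglia-like, 0.32 in macrophage-like, 0.10 in oligodendrocyte-like, 0.35 in astrocyte-like, 0.29 in ependymal-like and 0.31 in choroid plexus-like cells, each with all 3 CO libraries above all 3 NC libraries. In endothelial-like cells it was -0.13, with all CO libraries below all NC libraries. Complex II stood in the same way at 0.36 in astrocyte-like cells and at -0.12 in endothelial-like cells. These opposite directions are what singled the values out. The difference between classes was not tested, since each group counts as 1 sample. Scaled by total UMI counts, complex I kept its direction in these 7 classes, with 0.05 in microglia-like, 0.18 in choroid plexus-like and -0.21 in endothelial-like cells. Thinned to 1000 UMIs, it was 0.024 in oligodendrocyte-like and 0.17 in choroid plexus-like cells.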

How the results depend on the processing

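In the 6 classes where the summed 83 genes were higher in CO, they stayed higher under every alternative run. Cytochrome c was less stable, at -0.11 in astrocyte-like cells, 0.19 there when thinned to 1000 UMIs and -0.36 in those of at least 2000 UMIs. In endothelial-like cells ATP synthase stood at 0.01 and complex III at 0.05, and total UMI counts as the scale gave -0.07 and -0.03. For the log2 ratio of the summed 83 genes, total UMI counts as the scale gave 0.10 in microglia-like, -0.089 in endothelial-like and 0.21 in choroid plexus-like cells, and totals without ribosomal protein genes gave 0.11, -0.091 and 0.21. Thinning to 1000 UMIs gave 0.059 in oligodendrocyte-like and 0.21 in choroid plexus-like cells. Leaving out 1 library gave 0.15 to 0.17 in microglia-like, 0.14 to 0.25 in macrophage-like, -0.03 to 0.01 in endothelial-like, -0.06 to 0.02 in pericyte-like, 0.12 to 0.14 in oligodendrocyte-like, 0.32 to 0.44 in astrocyte-like, 0.26 to 0.32 in ependymal-like, 0.30 to 0.38 in choroid plexus-like and 0.02 to 0.07 in neuroblast-like cells. The cause of these shifts was not tested.

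The counts of members moved more. They are given without the share of all genes under the same setting, so they show only how the counts depend on the setting. At 1.5-fold, 2 members were higher in microglia-like, 1 in oligodendrocyte-like, 17 in astrocyte-like and 4 in ependymal-like cells, and the counts higher and lower were 10 and 3 in macrophage-like, 2 and 1 in endothelial-like, 2 and 3 in pericyte-like, 6 and 1 in choroid plexus-like and 1 and 1 in neuroblast-like cells. Thinned cells had 0 lower in microglia-like, 9 higher in pericyte-like, 1 lower in oligodendrocyte-like, 2 lower in astrocyte-like, 5 lower in ependymal-like, and 22 higher and 5 lower in choroid plexus-like cells. The stricter gate gave 3 lower in oligodendrocyte-like and 15 higher in neuroblast-like cells, at least 2000 UMIs gave 1 lower in astrocyte-like cells, and no minimum count gave 1 lower in astrocyte-like, 4 in ependymal-like and 11 in neuroblast-like cells. Both other totals gave 16 higher and 3 lower in choroid plexus-like cells. Leaving out 1 library gave, for higher and lower members, 15 to 18 and 1 to 3 in microglia-like, 21 to 29 and 5 to 9 in macrophage-like, 5 to 9 and 10 to 12 in endothelial-like, 9 to 17 and 8 to 16 in pericyte-like, 9 to 14 and 4 to 5 in oligodendrocyte-like, 37 to 52 and 0 to 1 in astrocyte-like, 29 to 40 and 2 to 3 in ependymal-like, 31 to 41 and 1 to 2 in choroid plexus-like, and 5 to 10 and 5 to 7 in neuroblast-like cells. In pericyte-like cells the share of Cox4i2 ran from 61.9% to 63.5% in NC and 54.5% to 56.7% in CO, and that of Ndufa4l2 from 86.5% to 88.1% and at 85.5%. The stricter gate gave 90.2% and 87.9% for Ndufa4l2, and at least 2000 UMIs gave 85.4% in CO.

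Libraries with the same number in NC and CO share only that number: their deviations from the group means correlated at -0.0785, -0.0677 and -0.109 over 11749 genes. Taking libraries as replicates all the same, edgeR's quasi-likelihood test called 36 members higher and 3 lower in microglia-like cells without the replicate block and 36 and 2 with it. In endothelial-like cells it called 16 and 21 without the replicate block and 17 and 20 with it, in choroid plexus-like cells 37 and 0 in both fits, and in oligodendrocyte-like cells 29 and 2, then 28 and 1. Over all genes, the fit without the replicate block called 36.9%, 38.6%, 24.1% and 21.2% in these 4 classes. Without the replicate block it called 23 and 0 members in astrocyte-like, 10 and 1 in ependymal-like, 2 and 1 in macrophage-like, 0 and 3 in pericyte-like and 2 and 2 in neuroblast-like cells, and 11.7%, 13.3%, 8.61%, 7.93% and 4.86% of all genes. DESeq2 called 33 and 2 in microglia-like cells (29.5% of all genes) and 43 and 0 in choroid plexus-like cells (20.4%). It called 14 and 20 in endothelial-like (32.2%), 30 and 0 in oligodendrocyte-like (17.7%) and 21 and 0 in astrocyte-like cells (8.45%). The calls were 9 and 1 in ependymal-like (8.13%), 1 and 0 in macrophage-like (5.04%), 0 and 2 in pericyte-like (3.37%) and 1 and 1 in neuroblast-like cells (2.49%). Such calls rest on the spread between libraries, which may come from 1 pool of cells. Depth limits the low isoforms most: Cox6a2 rested on 18 UMIs in NC microglia-like cells.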

Other observations

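Classes too small to compare are given as values, with no comparison between groups. Vascular smooth muscle-like cells, the contractile cells of vessel walls, numbered 66 in NC and 46 in CO. Cox4i2 was at 192 CPM in these NC cells and 344 CPM in the CO cells, and Ndufa4l2 at 172 CPM and 3.33 CPM. A Ndufa4l2 UMI was found in 27 of 66 NC cells (40.9%) and 2 of 46 CO cells (4.35%), and a Cox4i2 UMI in 57.6% and 69.6%. Their 83 genes summed to 26061 CPM in NC and 32215 CPM in CO.

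In the 89 NC and 51 CO fibroblast-like cells the 83 genes summed to 22251 and 28393 CPM, and in the 157 NC and 93 CO T or NK-like cells to 13594 and 13222 CPM. The 58 neutrophil-like CO cells held 6652 CPM, and the 26 neuron-like CO cells 49698.5 CPM. Cox4i2 was listed at 0 in the T or NK-like, B-like and neutrophil-like cells of both groups.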
